A study of Homo sapiens with 18 samples.

Results

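MYC and its MAX network were followed as 9 genes of the 58051 gene identifiers in the count tables: MYC itself, its dimer partner MAX, the antagonists MXD1, MXD3, MXD4, MXI1 and MNT, and the related factors MLX and MGA. They were chosen by symbol in GENCODE 29, and all 9 passed the filter on low counts. MYC is a basic helix-loop-helix leucine zipper transcription factor that binds E-box DNA as a heterodimer with MAX and raises transcription of growth genes, above all those of ribosome biogenesis. The MXD proteins, MXI1 and MNT compete for MAX and bring SIN3 and histone deacetylase repressor complexes to the same sites. MLX pairs with MondoA (MLXIP) and ChREBP (MLXIPL) and with some MXD proteins, and MGA brings MAX into the Polycomb complex PRC1.6.

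RNA was measured in the human cell line KBM7, which derives from chronic myelogenous leukaemia, by sequencing of polyadenylated RNA with added ERCC and SIRV spike-in RNA. Cells had received a compound of the dCeMM series (dCeMM-1, dCeMM-2, dCeMM-3 or dCeMM-4, each at 10 times EC50), THZ531 at 600 nM, or the solvent DMSO, in each case for 5 h. There were 3 libraries in each of the 6 groups, 18 in all. As general background, dCeMM-1 degrades RBM39, a splicing factor, dCeMM-2, dCeMM-3 and dCeMM-4 are degraders of cyclin K, and THZ531 binds CDK12 and CDK13, partner kinases of cyclin K, covalently and inhibits them. The series title names a search for molecular glue degraders, and DMSO is the solvent control for each compound. All libraries came from 1 cell line and 1 time point, so the groups model a short exposure only. Nothing in the labels says that libraries of 1 group were separate cultures, so p-values measure the spread between these libraries, which may be technical.

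Gene counts ranged from 4598576 to 17943571 per library, with DMSO replicate 3 the shallowest. Spike-in RNA made up 0.155% to 0.191% of counts with dCeMM-1, 0.429% to 0.585% with dCeMM-2, 0.471% to 0.611% with dCeMM-3, 0.195% to 0.290% with dCeMM-4, 0.416% to 0.591% with THZ531 and 0.167% to 0.202% with DMSO. Reads that mapped to several places made up 35.6% to 44.3% of reads over the dCeMM-2, dCeMM-3 and THZ531 libraries, and 27.7% to 29.5% over the DMSO libraries. Their part in the results was not tested. Levels are given as CPM, counts scaled to a common library total, after TMM scaling, which holds the bulk of genes in place; a TMM fold change is thus set against the other genes. On that scale the median log2 fold change of all 15055 tested genes against DMSO lay between -0.15 and 0.03. With spike-in scaling that median was 0.10 with dCeMM-1, -1.80 with dCeMM-2, -1.96 with dCeMM-3, -0.56 with dCeMM-4 and -1.94 with THZ531. Fewer cells and less RNA per cell cannot be told apart in these libraries, and the labels do not give the basis on which spike-in RNA was added. The myeloid and blood markers PTPRC, SPI1, MYB, RUNX1, GATA2, KIT and CD33 were present in all 18 libraries, whereas the T cell marker CD3E reached at most 4.46 CPM, the hepatocyte marker ALB 0.223, the fibroblast marker COL1A1 4.18, the epithelial marker EPCAM 1.63 and the endothelial marker VWF 0.175. PECAM1, which blood cells also express, lay between 16.3 and 49.0 CPM. Among mRNAs of the compounds' targets, RBM39 was at 561 ± 12.7 CPM with dCeMM-1, against 314 ± 4.69 with DMSO, and CDK12 was at 68.9 ± 2.77 CPM with THZ531, against 179 ± 4.25 with DMSO. CCNK, which encodes cyclin K, stood in the dCeMM-2 libraries at 181 ± 1.77 CPM, in those of dCeMM-3 at 51.0 ± 2.82 and in those of dCeMM-4 at 210 ± 6.20, against 122 ± 3.51 with DMSO, and its log2 fold change with dCeMM-2 was 0.57 on the TMM scale and -1.22 on the spike-in scale. The proteins were not measured.

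In GENCODE 29 on GRCh38, MLX, on chromosome 17 (42567068 to 42573239, plus strand), spans 6.17 kb. MXD3 spans 11.3 kb on chromosome 5 (177301461 to 177312757, minus strand), MXD4 14.9 kb on chromosome 4 (2247432 to 2262294, minus strand) and MNT 17.1 kb on chromosome 17 (2384060 to 2401118, minus strand). MXD1 spans 45.3 kb on chromosome 2 (69897688 to 69942945, plus strand), MXI1 79.8 kb on chromosome 10 (110207605 to 110287365, plus strand) and MAX 96.5 kb on chromosome 14 (65006174 to 65102695, minus strand). MGA is the longest at 152 kb on chromosome 15 (41621224 to 41773081, plus strand). The strand setting of the counting is not given in the sources used here, and exons of MLX overlap those of PSMC3IP on the opposite strand, those of MXD1 overlap SNRNP27 on the same strand, and those of MXD3 overlap RAB24 and PRELID1. Counts of MLX, MXD1 and MXD3 are therefore uncertain to the extent that reads were shared with these neighbours. Per library, SNRNP27 had 276 to 1188 counts, beside 69 to 1018 for MXD1. PRELID1 had 443 to 2005 and RAB24 11 to 65, beside 26 to 81 for MXD3.

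The canonical E-box of the network, CACGTG (a palindrome, so both strands read alike), was searched in RefSeq promoter windows of GRCh38.p14. These run from 250 bases before to 50 bases after a start annotated in RefSeq. For named genes 1 window per symbol was used, and its start need not be the GENCODE gene start. The windows of MXD1 (chr2:69914859-69915158) and MAX (chr14:65102234-65102533) lie inside the gene spans given above. Of all 35116 windows, a set not reduced to 1 per symbol, 7.26% held it. Windows for 8 of the 9 genes matched by symbol, and 3 of these, MLX, MNT and MXD4, held 1 match each, at positions -50, -193 and -238 from the start. They are shown because MLX and MNT were the genes besides MYC whose levels moved farthest, and because they place the network's own binding letters beside genes of the network. The capitals mark the E-box in the windows of MLX (chr17:42566850-42567149, plus strand), MNT (chr17:2401011-2401310, minus strand) and MXD4 (chr4:2262060-2262359, minus strand).
MLX: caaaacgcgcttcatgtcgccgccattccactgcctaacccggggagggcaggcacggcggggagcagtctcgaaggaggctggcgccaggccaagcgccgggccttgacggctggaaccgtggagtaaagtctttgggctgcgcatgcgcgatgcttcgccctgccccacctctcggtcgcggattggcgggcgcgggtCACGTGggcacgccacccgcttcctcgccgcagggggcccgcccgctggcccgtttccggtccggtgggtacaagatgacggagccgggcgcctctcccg
MNT: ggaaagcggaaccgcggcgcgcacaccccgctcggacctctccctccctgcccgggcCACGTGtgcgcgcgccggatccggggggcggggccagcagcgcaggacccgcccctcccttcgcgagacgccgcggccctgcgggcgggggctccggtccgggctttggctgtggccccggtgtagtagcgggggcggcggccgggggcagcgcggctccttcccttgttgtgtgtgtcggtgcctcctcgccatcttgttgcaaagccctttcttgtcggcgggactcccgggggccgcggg
MXD4: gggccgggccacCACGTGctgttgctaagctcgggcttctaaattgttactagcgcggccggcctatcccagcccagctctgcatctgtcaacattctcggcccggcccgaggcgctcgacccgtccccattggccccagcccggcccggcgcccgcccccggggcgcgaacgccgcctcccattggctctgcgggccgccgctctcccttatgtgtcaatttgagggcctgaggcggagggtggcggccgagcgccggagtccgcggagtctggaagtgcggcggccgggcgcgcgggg
The windows of MAX, MXD1, MXD3, MXI1 and MGA held no CACGTG. A match in a window is a description of the letters and does not show binding.

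In solvent-treated cells MYC was the most abundant transcript of the network per length of exon. It stood at 267 ± 10.3 CPM per kb of exon with DMSO (SD, n = 3). MAX followed at 46.0 ± 0.955, MLX at 18.6 ± 0.635 and MGA at 11.6 ± 1.04 CPM per kb. The antagonists were lower, with MXD1 at 5.76 ± 0.138, MXI1 at 4.36 ± 0.594, MNT at 3.74 ± 0.375, MXD4 at 3.21 ± 0.447 and MXD3 at 0.757 ± 0.191 CPM per kb. MXI1 and MNT, and MNT and MXD4, were closer to each other than the sum of their SDs. These levels rest on the union of annotated exons, so a gene with long alternative exons reads low.

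MYC is also the shortest gene of the 9, with 3 exons and a span of 6.001 kb on chromosome 8 (127735434 to 127741434, plus strand). On the TMM scale MYC mRNA fell with 4 of the 5 compounds, and by far the most with dCeMM-3. Its level was 587, 586 and 588 CPM in the 3 dCeMM-1 libraries, 489, 491 and 445 CPM with dCeMM-2, 16.6, 16.9 and 17.6 CPM with dCeMM-3, 722, 799 and 705 CPM with dCeMM-4, and 292, 269 and 283 CPM with THZ531, against 777, 837 and 791 CPM with DMSO. Except for dCeMM-4, the treated libraries all lay below every DMSO library, and those of dCeMM-4 overlapped it. By group mean the order, low to high, was dCeMM-3 (17.0 CPM), THZ531 (281), dCeMM-2 (475), dCeMM-1 (587), dCeMM-4 (742) and DMSO (802), and the ranges of neighbours in that order were apart except for dCeMM-4 and DMSO. Among all tested genes, MYC stood at percentile 59.3 of CPM with dCeMM-3 and at percentile 99.4 with DMSO.

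The log2 fold change of MYC against DMSO was -0.45 with dCeMM-1 (SE 0.06, edgeR quasi-likelihood test with Benjamini-Hochberg adjustment over all genes, adjusted p = 1.93e-07). It was -0.75 with dCeMM-2 (SE 0.06, adjusted p = 2.24e-14), -5.56 with dCeMM-3 (SE 0.08, adjusted p = 1.17e-37) and -1.51 with THZ531 (SE 0.06, adjusted p = 2.34e-23). The dCeMM-3 level was 47.1-fold lower than that of DMSO. With dCeMM-4 the value was -0.11 (95% interval -0.23 to 0.01, adjusted p = 0.0925), which missed the threshold of 0.05, and it passed without dCeMM-4 replicate 2 (-0.17, adjusted p = 0.0261). With DESeq2, or its size factors in edgeR, the dCeMM-4 value was 0.01. Scaled by spike-in counts, MYC was at -0.40 with dCeMM-1 (adjusted p = 0.274, not called), -2.54 with dCeMM-2, -7.38 with dCeMM-3, -0.68 with dCeMM-4 (adjusted p = 0.00162) and -3.36 with THZ531. Relative to the median of all genes on that scale, these are -0.49, -0.74, -5.42, -0.12 and -1.43, close to the TMM values.

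**Figure D1:**
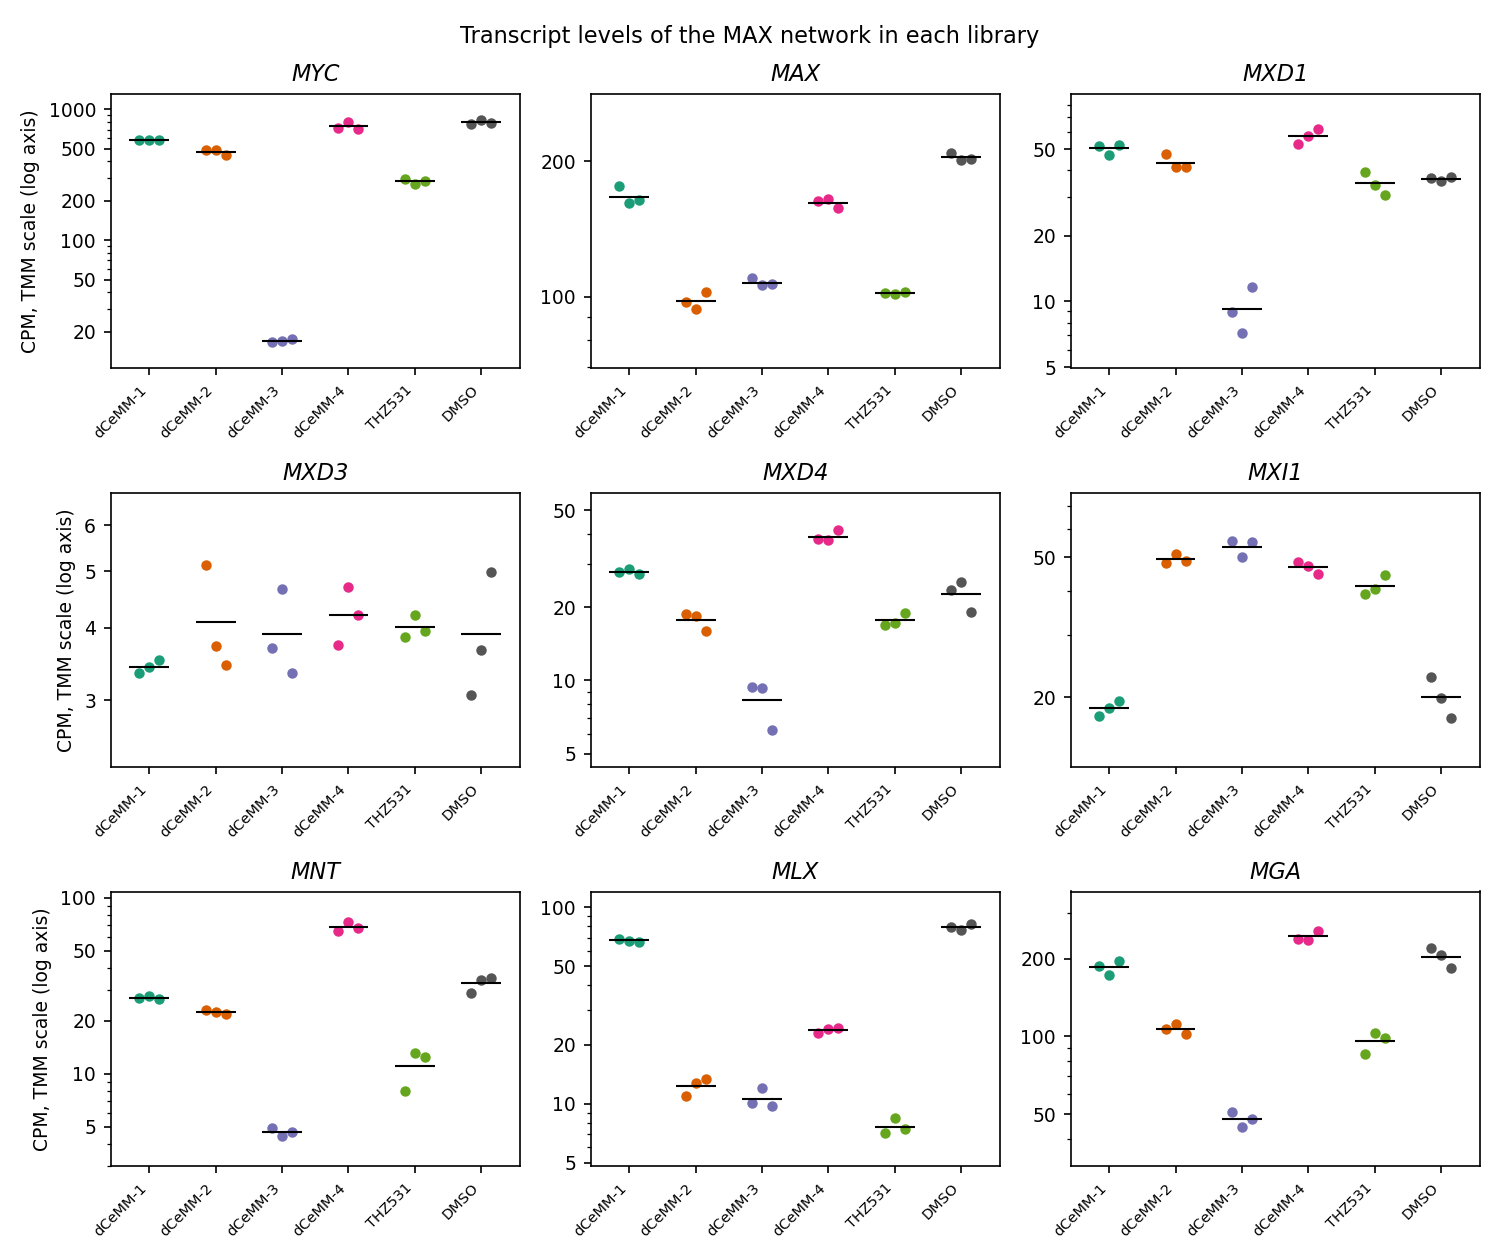
CPM after TMM scaling (log axis) of each of the 9 genes in the 18 libraries, by group, with points for libraries and a bar for the mean of 3. MYC with dCeMM-3 lies near 17.0 CPM, far below all other groups, MLX is low in the dCeMM-2, dCeMM-3, dCeMM-4 and THZ531 groups, MXI1 is high in the same 4 groups, and MNT is high with dCeMM-4 and low with dCeMM-3.

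MAX, the obligate partner of MYC and of most antagonists, fell with all 5 compounds on the TMM scale. It lay between 161 and 176 CPM with dCeMM-1, 93.9 and 103 with dCeMM-2, 106 and 110 with dCeMM-3, 158 and 164 with dCeMM-4 and 102 and 103 with THZ531, against 201 to 209 CPM with DMSO. All 15 treated libraries were below the 3 DMSO libraries. The log2 fold changes were -0.29 for dCeMM-1, -1.06 for dCeMM-2, -0.92 for dCeMM-3, -0.33 for dCeMM-4 and -0.999 for THZ531, each with an SE of 0.06, and adjusted p lay between 3.69e-18 and 0.000253. The dCeMM-1 value was -0.23 and not called on the spike-in scale (adjusted p = 0.646).

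MLX, the MAX-like partner of the Mondo proteins, fell with every compound on the TMM scale, and its log2 fold changes with dCeMM-2, dCeMM-4 and THZ531 were larger in size than those of MYC. Its level was 69.1, 67.6 and 66.2 CPM with dCeMM-1, 10.9, 12.7 and 13.4 CPM with dCeMM-2, 10.1, 12.0 and 9.69 CPM with dCeMM-3, 23.0, 24.0 and 24.2 CPM with dCeMM-4, and 7.06, 8.42 and 7.41 CPM with THZ531, against 79.2, 76.2 and 81.6 CPM with DMSO. No treated library overlapped DMSO, and the dCeMM-2 and dCeMM-3 libraries overlapped each other. The log2 fold changes were -2.69 (SE 0.09, adjusted p = 4.83e-25) with dCeMM-2, -2.91 (SE 0.09, adjusted p = 1.49e-26) with dCeMM-3, -1.73 (SE 0.08, adjusted p = 1.84e-20) with dCeMM-4 and -3.37 (SE 0.10, adjusted p = 2e-27) with THZ531. With dCeMM-1 it was -0.22 (SE 0.08, adjusted p = 0.0246), a call that was lost when DMSO replicate 1 (-0.22), DMSO replicate 3 (-0.20), dCeMM-1 replicate 2 (-0.22) or dCeMM-1 replicate 3 (-0.20) was left out, and on the spike-in scale it was -0.17 (adjusted p = 0.783). PSMC3IP, whose exons overlap MLX, had 31 to 165 counts per library, and MLX had 86 to 1461.

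MXI1, an antagonist that recruits SIN3, was the member that stood higher with all 3 cyclin K degraders and THZ531 on the TMM scale. Its level was 17.7, 18.7 and 19.5 CPM with dCeMM-1, 48.1, 51.1 and 48.9 CPM with dCeMM-2, 55.4, 49.96 and 55.3 CPM with dCeMM-3, 48.5, 47.2 and 44.8 CPM with dCeMM-4, and 39.3, 40.5 and 44.5 CPM with THZ531, against 22.9, 19.9 and 17.4 CPM with DMSO. The dCeMM-1 and DMSO libraries overlapped, and the other 4 groups lay above DMSO in every library. The log2 fold changes were 1.26 (SE 0.09), 1.38 (SE 0.09), 1.19 (SE 0.09) and 1.01 (SE 0.09) with dCeMM-2, dCeMM-3, dCeMM-4 and THZ531, with adjusted p between 4.01e-17 and 8.25e-13, and -0.14 with dCeMM-1 (adjusted p = 0.277). The direction depended on the scale: on the spike-in scale MXI1 was at -0.48 with dCeMM-2 (adjusted p = 0.0391), -0.39 with dCeMM-3 (adjusted p = 0.089, not called) and -0.80 with THZ531 (adjusted p = 0.000436), and it stayed higher with dCeMM-4 at 0.65 (adjusted p = 0.00742). Relative to the median of all genes on that scale MXI1 was at 1.32 with dCeMM-2, 1.56 with dCeMM-3, 1.21 with dCeMM-4 and 1.13 with THZ531.

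MNT, a broadly expressed antagonist, moved in opposite directions with the compounds. Its level was 27.1, 27.5 and 26.6 CPM with dCeMM-1, 23.0, 22.4 and 22.0 CPM with dCeMM-2, 4.93, 4.46 and 4.69 CPM with dCeMM-3, 64.6, 72.5 and 67.1 CPM with dCeMM-4, and 7.96, 13.1 and 12.4 CPM with THZ531, against 28.9, 34.2 and 34.9 CPM with DMSO. Every dCeMM-4 library was above DMSO, and every library of the other 4 compounds was below it. The log2 fold changes were 1.07 with dCeMM-4 (SE 0.10, adjusted p = 1.25e-12), -0.52 with dCeMM-2 (SE 0.11, adjusted p = 3.55e-05), -2.77 with dCeMM-3 (SE 0.13, adjusted p = 3.25e-21) and -1.54 with THZ531 (SE 0.12, adjusted p = 4.85e-15). On the spike-in scale the dCeMM-4 value was 0.50 (adjusted p = 0.0438), and with ERCC sequences alone it was 0.47 (adjusted p = 0.062, not called). The dCeMM-1 value of -0.26 (adjusted p = 0.0456) was no longer called without DMSO replicate 2 (-0.20), DMSO replicate 3 (-0.23) or any 1 of the dCeMM-1 libraries (-0.26, -0.27 and -0.24).

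MXD1, the founding member of the MXD antagonists, which is known to rise in myeloid differentiation, fell only with dCeMM-3 among the comparisons with DMSO on the TMM scale. Its level was 51.6, 47.1 and 52.4 CPM with dCeMM-1, 47.3, 41.3 and 41.2 CPM with dCeMM-2, 8.94, 7.15 and 11.7 CPM with dCeMM-3, 52.7, 57.1 and 62.1 CPM with dCeMM-4, and 39.3, 34.2 and 30.8 CPM with THZ531, against 36.7, 35.6 and 37.4 CPM with DMSO. THZ531 overlapped DMSO, the dCeMM-3 libraries lay below it, and those of the other 3 compounds lay above it. The log2 fold change was -1.96 with dCeMM-3 (SE 0.12, adjusted p = 6.74e-18), 0.65 with dCeMM-4 (SE 0.10, adjusted p = 1.93e-07) and 0.47 with dCeMM-1 (SE 0.10, adjusted p = 0.000273). With THZ531 it was -0.07 (95% interval -0.28 to 0.14, adjusted p = 0.542), and with DESeq2 it was 0.09. With dCeMM-2 it was 0.25 (SE 0.10, adjusted p = 0.0232) but -1.54 on the spike-in scale, and the TMM call was lost when DMSO replicate 1 (0.25), DMSO replicate 2 (0.22) or dCeMM-2 replicate 1 (0.16) was left out. By spike-in scaling neither the dCeMM-1 value (0.53, adjusted p = 0.154) nor the dCeMM-4 value (0.09, adjusted p = 0.744) was called, and THZ531 was at -1.90.

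MXD4, another MXD antagonist, was likewise lowest with dCeMM-3 and highest with dCeMM-4. It lay between 27.3 and 28.7 CPM with dCeMM-1, 16.0 and 18.7 with dCeMM-2, 6.28 and 9.40 with dCeMM-3, 37.7 and 41.4 with dCeMM-4 and 16.8 and 18.9 with THZ531, against 19.2 to 25.3 CPM with DMSO. It was at 0.74 with dCeMM-4 (SE 0.10, adjusted p = 2.55e-08), -1.48 with dCeMM-3 (SE 0.12, adjusted p = 5.92e-14), -0.39 with dCeMM-2 (SE 0.11, adjusted p = 0.00212) and -0.40 with THZ531 (SE 0.11, adjusted p = 0.00133). On the spike-in scale the dCeMM-4 value was 0.21 (adjusted p = 0.441, not called). The THZ531 call was lost with DESeq2 (-0.24, adjusted p = 0.0521) and when only the THZ531 and DMSO libraries were fitted (-0.21, adjusted p = 0.071). The dCeMM-1 value of 0.26 (adjusted p = 0.0448) lost its call without DMSO replicate 1 (0.27), DMSO replicate 3 (0.19) or any 1 of the dCeMM-1 libraries (0.27, 0.24 and 0.28), and with DESeq2 (0.24).

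MXD3, an antagonist linked to dividing cells, was rare in every group, at 3.07 to 5.12 CPM over all 18 libraries with 26 to 81 counts each. No comparison called it on the TMM scale, and its 95% intervals against DMSO reached as far as -0.46 and 0.60. Changes within the interval of a comparison remain possible at this depth. Scaled by spike-in counts, MXD3 was lower with dCeMM-2 (-1.63), dCeMM-3 (-1.78) and THZ531 (-1.75), near the medians of all genes on that scale, and was not called with dCeMM-1 (-0.06) or dCeMM-4 (-0.38).

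MGA, the scaffold of PRC1.6, fell with dCeMM-2, dCeMM-3 and THZ531 and stood higher with dCeMM-4. It lay between 173 and 196 CPM with dCeMM-1, 102 and 112 with dCeMM-2, 44.6 and 51.2 with dCeMM-3, 237 and 257 with dCeMM-4 and 85.4 and 103 with THZ531, against 184 to 221 CPM with DMSO. The log2 fold change was -0.93 with dCeMM-2 (SE 0.08, adjusted p = 3.36e-14), -2.09 with dCeMM-3 (SE 0.08, adjusted p = 1.77e-24) and -1.10 with THZ531 (SE 0.08, adjusted p = 2.83e-16). With dCeMM-4 it was 0.25 (SE 0.07, adjusted p = 0.00224), against -0.30 (adjusted p = 0.215, not called) on the spike-in scale. With dCeMM-1 it was -0.14 (adjusted p = 0.128, not called), and it was called without DMSO replicate 3 (-0.21, adjusted p = 0.0441) and when only the dCeMM-1 and DMSO libraries were fitted (-0.17, adjusted p = 0.0257).

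Counted over the 9 genes on the TMM scale, dCeMM-1 raised 2 and lowered 4, against 16.5% and 14.8% of all tested genes. With dCeMM-2, 2 were higher and 6 lower, against 37.1% and 41.2% of all genes. With dCeMM-3, 1 was higher and 7 lower, against 35.9% and 45.1%. With dCeMM-4, 5 were higher and 2 lower, against 32.9% and 35.3%. With THZ531, 1 was higher and 6 lower, against 35.8% and 43.7%. The median log2 fold change of the 9 genes was -0.14 with dCeMM-1, -0.52 with dCeMM-2, -1.96 with dCeMM-3, 0.25 with dCeMM-4 and -0.999 with THZ531, beside all-gene medians of 0.03, -0.02, -0.15, 0.01 and -0.10. In either direction 31.3% of all genes were called with dCeMM-1, 78.3% with dCeMM-2, 81.0% with dCeMM-3, 68.2% with dCeMM-4 and 79.5% with THZ531, so the 7 or 8 members called in each of the last 4 lie near the background. With dCeMM-1, leaving out any of its own libraries, DMSO replicate 1 or DMSO replicate 3 left 1 higher, and without dCeMM-1 replicate 2 or 3 there were 2 lower. With dCeMM-2, 1 was higher without dCeMM-2 replicate 1, DMSO replicate 1 or DMSO replicate 2. The 5 comparisons share the 3 DMSO libraries.

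Scaled by spike-in counts, no member was called with dCeMM-1 (0 of 9, where 2.83% of all genes were higher and 1.34% lower). With dCeMM-2 all 9 were lower, against 1.48% of all genes higher and 83.0% lower. With dCeMM-3, 8 were lower, against 1.12% higher and 83.7% lower. With THZ531 all 9 were lower, against 1.32% higher and 84.7% lower. With dCeMM-4, 2 were higher (MXI1 and MNT) and 3 lower (MYC, MAX and MLX), where 6.30% of all genes were higher and 48.0% lower.

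**Figure D2:**
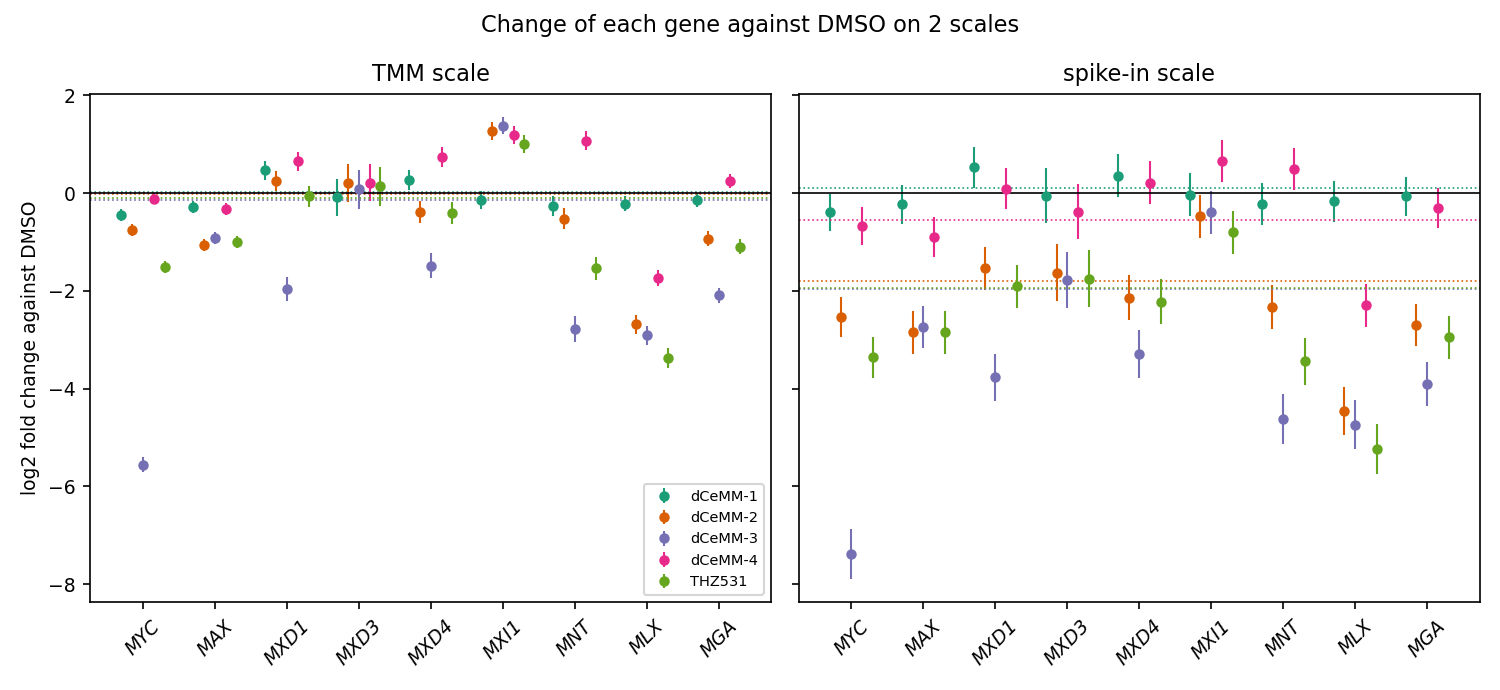
Log2 fold change against DMSO of each gene on the TMM scale (left) and the spike-in scale (right), with 95% intervals, coloured by compound; dotted lines mark the median of all tested genes for that compound. MYC with dCeMM-3 lies at -5.56 and -7.38 on the 2 scales, and the points of dCeMM-2, dCeMM-3 and THZ531 move down together with the dotted lines on the spike-in scale, where MXI1 falls below 0.

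The composition of the network was described per length of exon, with no test. MYC made up 70.01% ± 0.570 of the summed CPM per kb of the 9 genes with dCeMM-1, 74.4% ± 1.11 with dCeMM-2, 11.2% ± 0.448 with dCeMM-3, 73.4% ± 1.20 with dCeMM-4 and 65.5% ± 1.27 with THZ531, against 74.0% ± 1.02 with DMSO (SD, n = 3 each). The dCeMM-3 libraries stood apart, since MAX took 47.9% ± 0.488 and the 5 antagonists together 30.7% ± 0.922 of their sum, against 12.8% ± 0.534 and 4.94% ± 0.109 with DMSO. The whole sum was 279 ± 2.61 CPM per kb with dCeMM-1, 213 ± 8.41 with dCeMM-2, 50.7 ± 0.982 with dCeMM-3, 337 ± 17.1 with dCeMM-4 and 143 ± 3.31 with THZ531, against 361 ± 9.37 with DMSO.

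The ratio of MYC to the sum of its 5 antagonists was lower than in DMSO in every treated library. It was 9.93 ± 0.162 with dCeMM-1, 6.76 ± 0.191 with dCeMM-2, 0.365 ± 0.0197 with dCeMM-3, 7.42 ± 0.468 with dCeMM-4 and 4.92 ± 0.233 with THZ531, against 14.98 ± 0.514 with DMSO. A ratio within a library does not depend on the scaling. With dCeMM-3 alone the antagonists together exceeded MYC. The antagonist sum on the TMM scale was 19.7 ± 0.360 with dCeMM-1, 23.4 ± 0.810 with dCeMM-2, 15.6 ± 0.739 with dCeMM-3, 33.3 ± 0.872 with dCeMM-4 and 19.0 ± 0.307 with THZ531, against 17.8 ± 0.422 CPM per kb with DMSO. On the spike-in scale it was 20.6 ± 2.73 with dCeMM-1, 6.82 ± 1.19 with dCeMM-2, 4.43 ± 0.887 with dCeMM-3, 22.7 ± 5.17 with dCeMM-4 and 5.29 ± 0.800 with THZ531, against 17.9 ± 2.12 CPM per kb with DMSO. The sums of dCeMM-2 and THZ531 thus lay above DMSO on the TMM scale and below it on the spike-in scale, where the dCeMM-4 and DMSO libraries overlapped. The ratio of MAX to the antagonists was 1.91 ± 0.0931 for dCeMM-1, 0.947 ± 0.0690 for dCeMM-2, 1.56 ± 0.0612 for dCeMM-3, 1.10 ± 0.0452 for dCeMM-4 and 1.21 ± 0.0149 for THZ531, against 2.58 ± 0.0714 with DMSO.

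**Figure D3:**
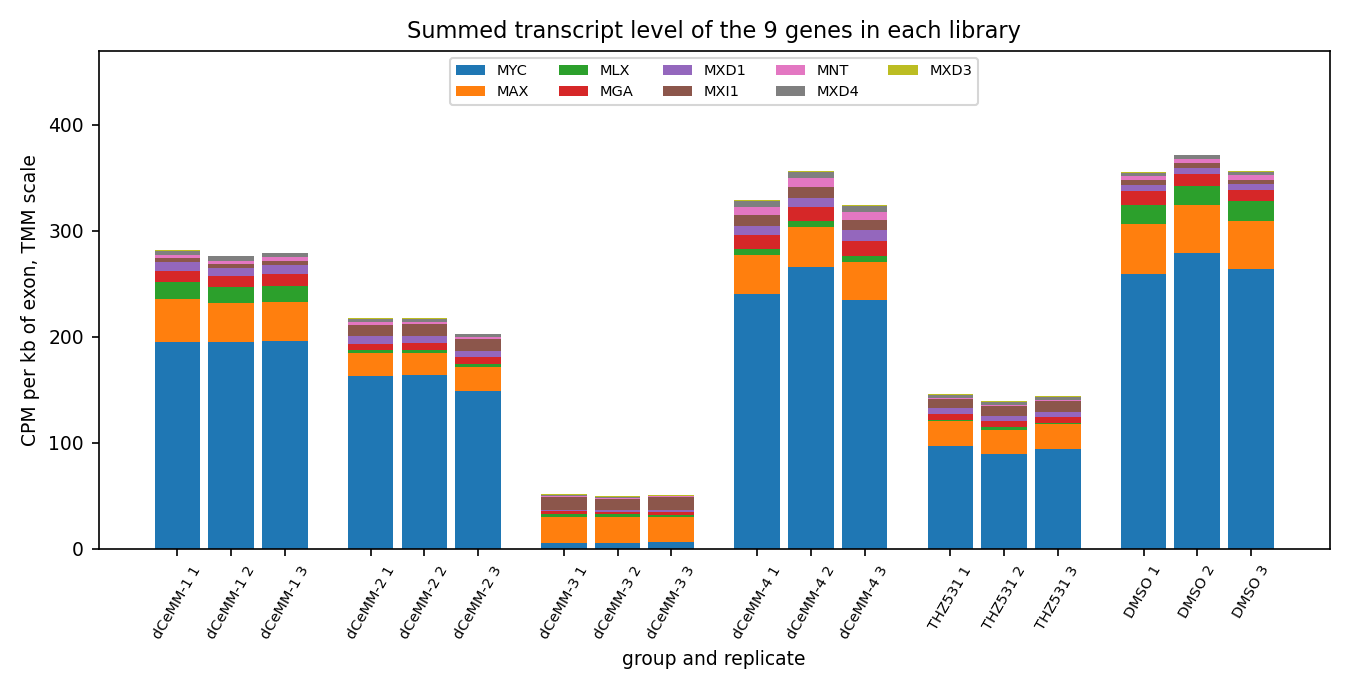
Summed CPM per kb of exon (TMM scale) of the 9 genes in each of the 18 libraries, stacked by gene. The sum is 50.7 with dCeMM-3 and 361 with DMSO on average, and MYC is the largest part in every group but dCeMM-3, where MAX is.

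The 3 cyclin K degraders were given at the same multiple of EC50 and were compared with each other in 3 pairs, with p-values adjusted over all genes within a pair. Their structures are not described here. MYC was higher with dCeMM-2 than with dCeMM-3 by 4.80 on the log2 scale (95% interval 4.65 to 4.96, adjusted p = 1.41e-35) and 27.9-fold. It was lower with dCeMM-2 than with dCeMM-4, at -0.64 (interval -0.76 to -0.52, adjusted p = 2.05e-12), and lower with dCeMM-3 than with dCeMM-4, at -5.45 (interval -5.60 to -5.29, adjusted p = 2.14e-37). On the spike-in scale MYC was at 4.84 for dCeMM-2 against dCeMM-3, -1.86 for dCeMM-2 against dCeMM-4 and -6.71 for dCeMM-3 against dCeMM-4, beside medians of all genes of 0.06, -1.15 and -1.17.

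Between dCeMM-2 and dCeMM-3, MNT differed by 2.25 (95% interval 1.97 to 2.53), MXD1 by 2.21 (1.97 to 2.45), MGA by 1.16 (1.00 to 1.32) and MXD4 by 1.10 (0.84 to 1.36), all higher with dCeMM-2. With MYC these are 5 genes higher and 0 lower, against 26.6% and 16.5% of all genes (43.1% in either direction). With DESeq2 size factors in edgeR 2 were lower, and 3535 of all genes were higher and 3363 lower. The other 4 genes were not called, with values of -0.14 for MAX (interval -0.27 to -0.01, adjusted p = 0.0781), -0.12 for MXI1 (-0.29 to 0.05), 0.22 for MLX (-0.01 to 0.45) and 0.13 for MXD3 (-0.27 to 0.52). MLX was called without dCeMM-2 replicate 1 (0.31, adjusted p = 0.0479) or dCeMM-3 replicate 2 (0.31, adjusted p = 0.0378). With DESeq2 size factors inside edgeR, MAX (-0.22, adjusted p = 0.00603) and MXI1 (-0.20, adjusted p = 0.0439) were called lower with dCeMM-2. On the TMM scale these degraders differed 27.9-fold in MYC, and their log2 intervals for MAX, MXI1 and MLX reached no farther than 0.45 from 0. On the spike-in scale the intervals were wider, at -0.51 to 0.30 for MAX, -0.51 to 0.34 for MXI1 and -0.19 to 0.73 for MLX.

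Between dCeMM-2 and dCeMM-4, 0 of 9 genes were higher and 7 lower with dCeMM-2, against 38.4% and 38.9% of all genes (77.3% in either direction). MNT was at -1.60 (95% interval -1.80 to -1.39), MGA at -1.19 (-1.34 to -1.04), MXD4 at -1.13 (-1.34 to -0.92), MLX at -0.96 (-1.16 to -0.76), MAX at -0.73 (-0.85 to -0.60) and MXD1 at -0.40 (-0.59 to -0.21). MXI1 was at 0.08 (-0.09 to 0.24), and at -1.13 on the spike-in scale, where the all-gene median was -1.15. Between dCeMM-3 and dCeMM-4, 1 was higher and 7 lower with dCeMM-3, against 41.5% and 41.2% of all genes (82.7% in either direction). MNT was at -3.85 (-4.10 to -3.60), MXD1 at -2.61 (-2.84 to -2.38), MGA at -2.35 (-2.51 to -2.19), MXD4 at -2.23 (-2.46 to -1.99), MLX at -1.18 (-1.38 to -0.97) and MAX at -0.59 (-0.71 to -0.46). The 1 higher gene was MXI1, at 0.20 (0.03 to 0.36, adjusted p = 0.0241). Its call was lost without dCeMM-3 replicate 1 (0.16), dCeMM-3 replicate 3 (0.16), dCeMM-4 replicate 2 (0.18) or dCeMM-4 replicate 3 (0.15), and on the spike-in scale it was at -1.05. The THZ531 dose was not set by EC50, so its values stand beside those of the degraders without a comparison.

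**Figure D4:**
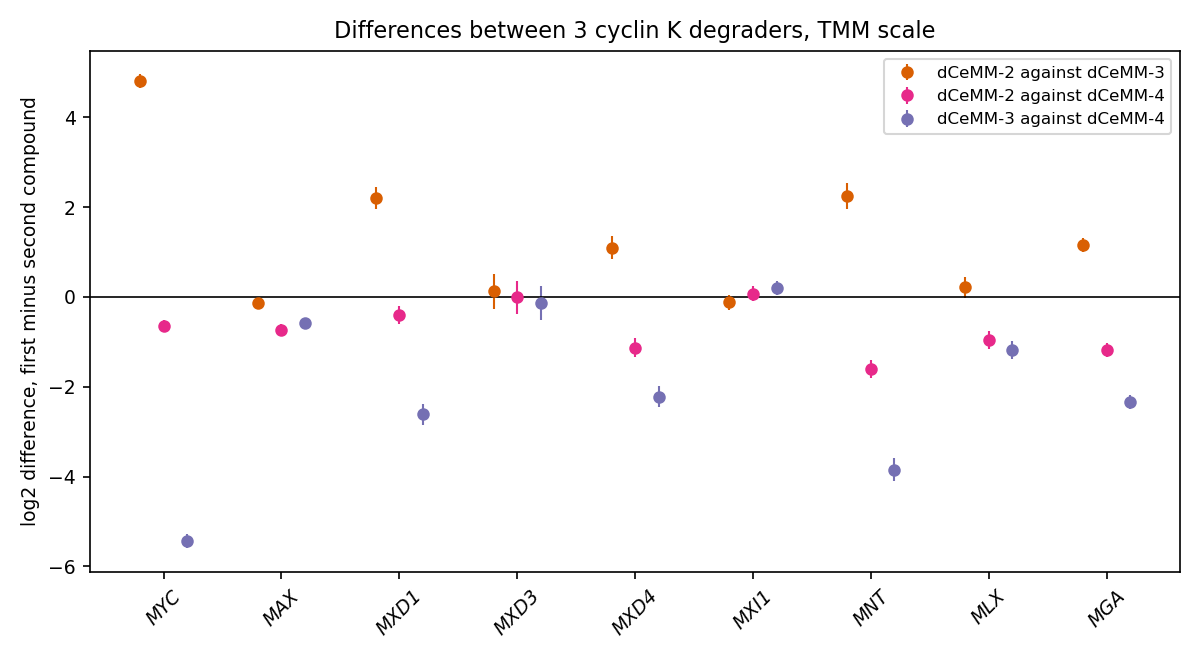
Log2 differences (TMM scale) between the 3 cyclin K degraders for each gene, first minus second compound, with 95% intervals. The dCeMM-3 pairs lie at 4.80 and -5.45 for MYC, and all 3 pairs lie near 0 for MXI1 and MXD3.

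Relatives of MYC and the Mondo proteins were read from the same fit. MYCL, the MYC paralogue first found in lung cancer, fell with dCeMM-2 to 1.40 ± 0.269 CPM, with dCeMM-3 to 0.782 ± 0.0540 and with THZ531 to 0.913 ± 0.123, against 4.68 ± 1.25 CPM with DMSO (SD, n = 3 each). MYCN, at low levels throughout, rose to 3.00 ± 0.625 CPM with dCeMM-2 (log2 fold change 1.44, adjusted p = 5.62e-05) and fell to 0.219 ± 0.0937 CPM with dCeMM-3 (-2.33, adjusted p = 7.85e-05), against 0.991 ± 0.393 CPM with DMSO. It was also called higher with dCeMM-4 (0.95, adjusted p = 0.00584) and lower with dCeMM-1 (-1.14, adjusted p = 0.0214). On the spike-in scale MYCN was at -1.06 with dCeMM-1, -0.28 with dCeMM-2 and 0.44 with dCeMM-4, none of them called. MLXIP, which encodes MondoA, rose with dCeMM-4 to 203 ± 13.5 CPM, against 91.5 ± 11.4 CPM with DMSO (1.15, adjusted p = 8.83e-16), and by 0.58 on the spike-in scale. It fell with dCeMM-3 to 55.2 ± 2.70 CPM (-0.72, adjusted p = 5.50e-10) and with dCeMM-1 to 73.99 ± 6.13 CPM (-0.30, adjusted p = 0.00394), and the dCeMM-1 value was -0.26 and not called on the spike-in scale. MLXIPL, which encodes ChREBP, had at most 2 counts in a library and was not tested.

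TXNIP and ARRDC4, arrestin family genes, are known as direct targets of MondoA with MLX. TXNIP was at 437 ± 46.0 CPM with dCeMM-2, 140 ± 7.55 with dCeMM-3, 329 ± 6.62 with dCeMM-4 and 679 ± 36.0 with THZ531, against 196 ± 5.17 CPM with DMSO. It was higher with dCeMM-2 (1.16), dCeMM-4 (0.75) and THZ531 (1.79) and lower with dCeMM-3 (-0.49), each with adjusted p of 2.78e-08 or less, while MLX was lower with all 4. ARRDC4 was at 30.5 ± 2.13 CPM with dCeMM-2, 5.39 ± 1.25 with dCeMM-3, 61.02 ± 2.91 with dCeMM-4 and 18.8 ± 0.499 with THZ531, against 24.6 ± 1.71 with DMSO. Without dCeMM-2 replicate 2, only 1 of the 2 genes was called higher with dCeMM-2. Under spike-in scaling ARRDC4 was at -1.46 with dCeMM-2, and TXNIP was at -0.62 with dCeMM-2, -2.30 with dCeMM-3, 0.18 with dCeMM-4 (not called) and -0.05 with THZ531 (not called).

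Counts of gene lists are given on the TMM scale, with the shares of all tested genes higher and lower in that comparison in parentheses. Among 15 cofactors of MYC and of the MXD repressors, none rose and 7 fell with dCeMM-1 (16.5% and 14.8%), 5 rose and 6 fell with dCeMM-2 (37.1% and 41.2%), 2 and 10 with dCeMM-3 (35.9% and 45.1%), 8 and 3 with dCeMM-4 (32.9% and 35.3%), and 3 and 8 with THZ531 (35.8% and 43.7%). The list medians were -0.19, -0.10, -0.58, 0.21 and -0.24. Spike-in scaling left none called with dCeMM-1, where 2.83% of all genes were higher and 1.34% lower. With dCeMM-4, 2 were higher and 6 lower, against 6.30% and 48.0% of all genes. All 15 were lower with dCeMM-2, dCeMM-3 and THZ531, where 83.0%, 83.7% and 84.7% of all genes were lower. SIN3A, the scaffold that MXD proteins and MNT recruit, fell to 27.3 ± 0.439 CPM with dCeMM-3 (-3.38, adjusted p = 3.22e-31) and 73.9 ± 5.25 with THZ531 (-1.94), against 284 ± 8.42 CPM with DMSO. On the TMM scale SIN3A stood below DMSO with dCeMM-2, at 161 ± 13.5 CPM, and above it with dCeMM-4, at 403 ± 24.3 CPM. The all-gene median with dCeMM-4 was -0.56 on the spike-in scale, so this rise of SIN3A need not hold there. KAT5, the TIP60 acetyltransferase that MYC recruits, fell by 1.44 on the log2 scale with dCeMM-2, by 3.17 with dCeMM-3 and by 2.24 with THZ531. HDAC1, a deacetylase of the SIN3 complex, was higher with THZ531 on the TMM scale at 352 ± 9.03 CPM, against 181 ± 6.50 with DMSO, and lower on the spike-in scale (-0.89). ZBTB17, which encodes the MYC partner MIZ1, rose with dCeMM-4 to 35.1 ± 2.17 CPM, against 13.98 ± 2.501 with DMSO (1.28, adjusted p = 2.17e-13).

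Of 11 genes that act on MYC protein stability, 3 rose and 3 fell with dCeMM-1 (16.5% and 14.8%), 3 and 6 with dCeMM-2 (37.1% and 41.2%), 2 and 7 with dCeMM-3 (35.9% and 45.1%), 6 and 2 with dCeMM-4 (32.9% and 35.3%), and 4 and 6 with THZ531 (35.8% and 43.7%). By spike-in scaling 1 was higher and 0 lower with dCeMM-1 (all genes 2.83% and 1.34%), and 1 and 3 with dCeMM-4 (6.30% and 48.0%). All 11 were lower with dCeMM-2, dCeMM-3 and THZ531, where 83.0%, 83.7% and 84.7% of all genes were lower. The list medians on the TMM scale were 0.05, -0.22, -1.11, 0.45 and -0.43, and without THZ531 replicate 2 the THZ531 count of genes that rose was 2. USP36, a nucleolar deubiquitinase that protects MYC, fell to 87.7 ± 1.27 CPM with dCeMM-1, 50.1 ± 5.52 CPM with dCeMM-2, 16.9 ± 0.745 CPM with dCeMM-3 and 40.9 ± 1.01 CPM with THZ531, against 121 ± 6.81 CPM with DMSO. With dCeMM-4 USP36 stood above DMSO on the TMM scale, at 166 ± 8.07 CPM. This need not hold on the spike-in scale, where the all-gene median with dCeMM-4 was -0.56. FBXW7, the ubiquitin ligase subunit that marks phosphorylated MYC for degradation, was at 0.79 with dCeMM-4 (adjusted p = 1.05e-10) and -1.32 with dCeMM-3, and the dCeMM-4 value was 0.22 and not called on the spike-in scale. CIP2A, which shields MYC from the phosphatase PP2A, rose with dCeMM-1 to 58.1 ± 4.18 CPM, against 24.9 ± 1.79 with DMSO (1.21, adjusted p = 8.18e-12). MYC protein was not measured.

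Of 10 subunits of the MGA complex PRC1.6, 2 rose and 3 fell with dCeMM-1 (16.5% and 14.8%), 2 and 6 with dCeMM-2 (37.1% and 41.2%), 2 and 8 with dCeMM-3 (35.9% and 45.1%), 3 and 5 with dCeMM-4 (32.9% and 35.3%), and 3 and 7 with THZ531 (35.8% and 43.7%). Their medians were -0.12, -0.71, -1.61, -0.01 and -0.80. With spike-in counts as the scale, none was called with dCeMM-1, where 2.83% of all genes were higher and 1.34% lower. With dCeMM-4, 1 was higher and 5 lower, against 6.30% and 48.0% of all genes. All 10 were lower with dCeMM-2, dCeMM-3 and THZ531, where 83.0%, 83.7% and 84.7% of all genes were lower. Without DMSO replicate 1 the dCeMM-4 count of genes that rose was 5, and without DMSO replicate 2 or dCeMM-1 replicate 3 the dCeMM-1 count was 1. L3MBTL2, its methyl-lysine reader, fell to 16.8 ± 1.53 CPM with dCeMM-2, 20.2 ± 1.26 CPM with dCeMM-3 and 12.0 ± 0.0881 CPM with dCeMM-4, against 77.5 ± 5.41 CPM with DMSO. PCGF6, the Polycomb ring finger that defines the complex, fell by 2.41 on the log2 scale with dCeMM-2, by 2.36 with dCeMM-3 and by 2.23 with THZ531. E2F6, its DNA-binding subunit, fell by 3.61 on the log2 scale with dCeMM-3 and 2.75 with THZ531. With dCeMM-4 E2F6 was at 25.3 ± 2.40 CPM on the TMM scale, against 21.4 ± 2.10 with DMSO. This order need not hold on the spike-in scale, where the all-gene median with dCeMM-4 was -0.56.

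Of 10 germline genes that this complex represses in mouse cells, 6 had at most 2 counts in any library and were not tested. Of the other 4, 1 rose and 0 fell with dCeMM-1 (16.5% and 14.8%), 3 and 0 with dCeMM-2 (37.1% and 41.2%), 2 and 0 with dCeMM-3 (35.9% and 45.1%), 0 and 2 with dCeMM-4 (32.9% and 35.3%), and 2 and 0 with THZ531 (35.8% and 43.7%). The cohesin subunit gene STAG3 was low throughout, at 0.903 ± 0.222 CPM with dCeMM-2, 1.05 ± 0.188 CPM with dCeMM-3 and 0.712 ± 0.162 CPM with THZ531, against 0.346 ± 0.04996 CPM with DMSO. Without DMSO replicate 2, DMSO replicate 3 or dCeMM-2 replicate 1, the dCeMM-2 count of genes that rose was 1. The THZ531 count was 1 without DMSO replicate 1, DMSO replicate 2, THZ531 replicate 1 or THZ531 replicate 3, the dCeMM-1 count was 0 when dCeMM-1 replicate 3 or either DMSO replicate 1 or 2 was left out, and the dCeMM-4 count of genes that fell was 1 without dCeMM-4 replicate 1 or dCeMM-4 replicate 2. On the spike-in scale none of the 4 rose with any compound, where 1.12% to 6.30% of all genes did. There 2 were lower with dCeMM-2, 2 with dCeMM-3, 3 with dCeMM-4 and 2 with THZ531. The shares of all genes lower with these compounds were 83.0%, 83.7%, 48.0% and 84.7%.

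Genes that MYC is known to activate were split into ribosome biogenesis and metabolism. These lists, and the genes that MYC represses, were chosen with earlier results of these data known, so their counts are a description. Of 22 ribosome biogenesis genes, 0 rose and 20 fell with dCeMM-1 (16.5% and 14.8%), 3 and 17 with dCeMM-2 (37.1% and 41.2%), 2 and 20 with dCeMM-3 (35.9% and 45.1%), 8 and 8 with dCeMM-4 (32.9% and 35.3%), and 2 and 18 with THZ531 (35.8% and 43.7%). The dCeMM-4 counts are near the shares of all genes. The list medians were -0.66, -1.73, -2.72, 0.05 and -1.75, against all-gene medians of 0.03, -0.02, -0.15, 0.01 and -0.10. With spike-in scaling none was higher with any compound, where 1.12% to 6.30% of all genes were. Lower were 10 of the 22 with dCeMM-1 (1.34% of all genes) and 12 with dCeMM-4 (48.0%). All 22 were lower with dCeMM-2, dCeMM-3 and THZ531, where 83.0%, 83.7% and 84.7% of all genes were lower.

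Within that list the dCeMM-3 falls were led by NOP16, a nucleolar protein gene, at 3.67 ± 0.307 CPM with dCeMM-3 against 101 ± 5.94 CPM with DMSO (-4.75, SE 0.11). POLR1B, the second largest subunit of RNA polymerase I, was at 8.98 ± 0.745 CPM with dCeMM-3 against 191 ± 4.70 with DMSO, and BYSL, a small subunit processing factor, at 3.19 ± 0.264 against 56.5 ± 5.14. GNL3, which encodes nucleostemin, was at -3.18 with dCeMM-2 and -3.57 with THZ531, where MYC was at -0.75 and -1.51; the difference between the genes was not tested. With dCeMM-1 the falls were smaller, led by RRP9 (-1.06), RRP12 (-0.996) and BOP1 (-0.95), pre-rRNA processing genes. The abundant nucleolar genes FBL, NPM1 and NOP56, chosen after their values were seen, ran the other way with dCeMM-2, at 1.15, 0.78 and 0.67 on the TMM scale, and at -0.64, -1.004 and -1.11 on the spike-in scale. NCL, which encodes nucleolin, was at -0.49 for dCeMM-1, -0.45 for dCeMM-2, -1.21 for dCeMM-3, 0.17 for dCeMM-4 and -0.54 for THZ531.

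Of 25 metabolic and growth genes, 1 rose and 14 fell with dCeMM-1 (16.5% and 14.8%), 8 and 9 with dCeMM-2 (37.1% and 41.2%), 8 and 14 with dCeMM-3 (35.9% and 45.1%), 10 and 7 with dCeMM-4 (32.9% and 35.3%), and 9 and 13 with THZ531 (35.8% and 43.7%), with medians of -0.25, 0.01, -0.31, 0.12 and -0.17. By spike-in scaling none was called with dCeMM-1, where 2.83% of all genes were higher and 1.34% lower. With dCeMM-4, 2 were higher and 12 lower, against 6.30% and 48.0% of all genes. Lower were 23 with dCeMM-2 (83.0% of all genes), 24 with dCeMM-3 (83.7%) and 24 with THZ531 (84.7%). None was higher with these compounds, against 1.48%, 1.12% and 1.32% of all genes. Without dCeMM-3 replicate 2 the dCeMM-3 count of genes that rose was 5, and without DMSO replicate 2 the dCeMM-1 count was 2. CDC25A, a cell cycle phosphatase, fell by 3.82 on the log2 scale with dCeMM-3 and 2.67 with THZ531. With dCeMM-4 CDC25A was at 88.7 ± 3.02 CPM on the TMM scale, against 70.7 ± 3.46 with DMSO. This order need not hold on the spike-in scale, where the all-gene median with dCeMM-4 was -0.56. ODC1, the rate-limiting enzyme of polyamine synthesis, was at 0.99 with dCeMM-2 and 1.004 with dCeMM-4 and at -0.25 with dCeMM-3 on the TMM scale, and at -0.79, 0.44 and -2.07 on the spike-in scale. SHMT2, the mitochondrial serine hydroxymethyltransferase, rose with dCeMM-2 on the TMM scale to 882 ± 54.3 CPM, against 282 ± 3.71 CPM with DMSO (1.64, adjusted p = 6.58e-23), and was at -0.15 and not called on the spike-in scale.

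Of 8 genes that MYC is known to repress, 1 rose and 1 fell with dCeMM-1 (16.5% and 14.8%), 5 and 2 with dCeMM-2 (37.1% and 41.2%), 4 and 3 with dCeMM-3 (35.9% and 45.1%), 4 and 2 with dCeMM-4 (32.9% and 35.3%), and 5 and 3 with THZ531 (35.8% and 43.7%), with medians of 0.17, 1.03, 0.14, 0.50 and 0.83. Spike-in scaling gave counts of 0 and 0 with dCeMM-1 (all genes 2.83% and 1.34%) and 1 and 4 with dCeMM-2 (1.48% and 83.0%). They were 0 and 6 with dCeMM-3 (1.12% and 83.7%), 3 and 4 with dCeMM-4 (6.30% and 48.0%), and 1 and 6 with THZ531 (1.32% and 84.7%). The list medians were then 0.23, -0.75, -1.66, -0.06 and -0.99. Each lay above its all-gene median, these being 0.10, -1.80, -1.96, -0.56 and -1.94. CDKN1A, the p21 inhibitor that is also a p53 target, was at 329 ± 13.9 CPM with dCeMM-2, 82.2 ± 2.004 with dCeMM-4 and 504 ± 19.6 with THZ531, against 19.4 ± 0.919 with DMSO. With dCeMM-3, where MYC was lowest, CDKN1A was at 0.84 on the TMM scale and at -0.99 on the spike-in scale. CEBPA, a myeloid transcription factor, fell to 3.98 ± 0.787 CPM with dCeMM-3, against 31.7 ± 1.87 with DMSO, and CDKN1B, the p27 inhibitor, fell by 2.33 on the log2 scale.

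**Figure D5:**
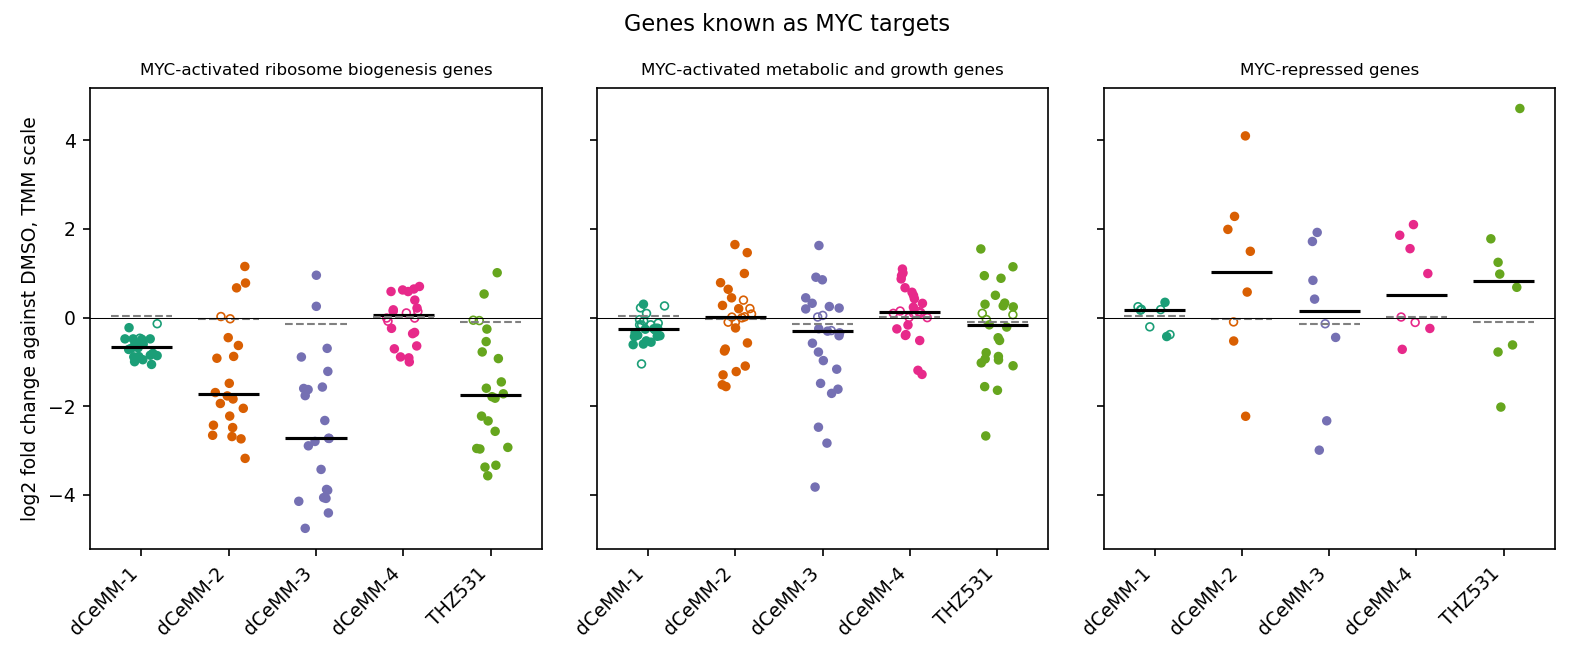
Log2 fold change against DMSO (TMM scale) of genes known as MYC targets, by compound; each point is a gene, filled where it passed the threshold, the black bar is the list median and the dashed bar the median of all genes. The ribosome biogenesis medians lie at -0.66, -1.73, -2.72, 0.05 and -1.75, and the metabolic medians between -0.31 and 0.12.

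Among the same lists the E-box CACGTG stood in 7 of 17 ribosome biogenesis promoters with a RefSeq window (41.2%) and in 7 of 22 metabolic promoters (31.8%), against 7.26% of all promoters. None of 5 windows of repressed genes held it.

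The genes whose pattern over the 6 groups was nearest to that of MYC were found among 10492 protein-coding genes with at least 5 CPM in their highest group, by the root mean square difference of centred mean log2 CPM. They were DUSP6 (0.616), OTX1 (0.629), FOXA1 (0.647), NR1D1 (0.659) and ZNF622 (0.679). None lay as close as the nearest neighbour of MAX, which was ADSS at 0.0359, or of MLX, which was JPH1 at 0.0777. The measure is not scaled for the size of a gene's changes, so distances of different members are not directly comparable. The largest log2 fold changes against DMSO were -5.56 for MYC, -1.06 for MAX and -3.37 for MLX. With dCeMM-3 the 5 genes were between -4.22 and -3.53 on the log2 scale relative to DMSO, short of the fall of MYC. With THZ531 all 5 were below DMSO, and with dCeMM-4 all 5 were above it (0.42 to 1.76), where MYC was not. With dCeMM-2 DUSP6 was above DMSO (0.77) and the others below it. With dCeMM-1 DUSP6 (0.61), OTX1 (0.32) and FOXA1 (0.06) were above DMSO, and NR1D1 (-0.77) and ZNF622 (-0.18) below it.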

How the data were processed

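The authors deposited raw read counts per gene, 1 table per library, with 92 ERCC sequences, 7 SIRV genes and 5 HTSeq summary classes. The summary classes, 34.2% to 50.5% of reads, were left out. HTSeq 0.11.2, STAR 2.5.2b, Trimmomatic 0.32, Picard and the build GRCh38.p7 stand in the submitters' processing notes, without roles; the strand setting is not given in the sources used here. Of 58051 identifiers 57447 matched GENCODE 29.

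Genes passed filterByExpr by group in edgeR 4.0.16 (R 4.3.3, limma 3.58.1), which left 15055. TMM factors came from endogenous genes alone, and 1 robust quasi-likelihood model with a coefficient per group was fitted to all 18 libraries (12 residual degrees of freedom). P-values were adjusted by Benjamini-Hochberg over all tested genes within each of 8 comparisons, with a threshold of 0.05. The same model scaled by spike-in counts is named as the spike-in scale. Intervals are 95% intervals from the SE. Levels between genes were divided by the union of exon length. Alternatives were DESeq2 1.42.0, its size factors in edgeR, ERCC scaling, no filter, the 2 groups alone, a replicate block and each library left out.

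The members and gene lists were chosen with earlier results of these data known. Named genes were the members, MYCN, MYCL, MLXIP and MLXIPL, up to 3 called genes with the largest change per list and comparison, TXNIP, ARRDC4, CDKN1A, NCL, GNL3, NOP16, ODC1, FBXW7 and SIN3A, the known targets CCNK, CDK12 and RBM39, and the 5 nearest profiles to MYC; FBL, NPM1 and NOP56 were added after their values were seen. A further marker of other cell types was read and is not reported here.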

Additional observations from a re-analysis of the deposited data

How the results depend on the processing

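Of the 72 log2 fold changes of the 9 genes, 49 kept direction and call on the spike-in scale, 66 with DESeq2, 67 with its size factors in edgeR, 65 without the filter and 68 with the 2 groups alone; the cause of the changes was not tested. MYC with dCeMM-1 was -0.40 and not called by spike-in and by ERCC scaling. MYC with dCeMM-4 was 0.0114 with DESeq2 and 0.0115 with its size factors in edgeR, and was called at -0.68 by spike-in and -0.70 by ERCC scaling. Leaving out 1 library gave -0.167 to -0.0751 for it, with a call only without dCeMM-4 replicate 2.

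By spike-in and ERCC scaling, values turned to -1.54 and -1.57 for MXD1, -1.63 and -1.66 for MXD3 and -0.48 and -0.51 for MXI1 with dCeMM-2. With dCeMM-3 they turned to -1.78 and -1.81 for MXD3 and -0.39 and -0.42 for MXI1. With dCeMM-4 they turned to -0.38 and -0.41 for MXD3 and -0.30 and -0.33 for MGA. With THZ531 they turned to -1.75 and -1.77 for MXD3 and -0.80 and -0.82 for MXI1. MXI1 turned to -1.13 and -1.13 for dCeMM-2 against dCeMM-4, and to -1.05 and -1.04 for dCeMM-3 against dCeMM-4. MXD1 with THZ531 was 0.0870 with DESeq2, 0.0876 with its size factors in edgeR, and 0.12 with the 2 groups alone. Without the filter, MXD3 with dCeMM-3 was -0.016 and MXI1 for dCeMM-2 against dCeMM-4 was -0.024. MXD3 for dCeMM-2 against dCeMM-4 was 0.049 with the 2 groups alone.

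Leaving out 1 library turned values that were not called. MXD3 ran between -0.228 and 0.0237 with dCeMM-1, -0.0233 and 0.296 with dCeMM-2, -0.0855 and 0.163 with dCeMM-3, and -0.0199 and 0.229 with THZ531. It ran between -0.0854 and 0.257 for dCeMM-2 against dCeMM-3, and between -0.238 and 0.0680 for dCeMM-2 against dCeMM-4. MXD1 with THZ531 ran between -0.18 and 0.00036.

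Counts of the 9 genes that moved are these. Higher with dCeMM-1 (2) became 1 with DESeq2, its size factors or no filter, 0 by spike-in or ERCC scaling, and 1 to 2 with 1 library left out. Lower with dCeMM-1 (4) became 0 by spike-in or ERCC scaling, 2 without the filter and 2 to 3 with 1 library left out. Higher with dCeMM-2 (2) became 0 by spike-in or ERCC scaling, 1 without the filter and 1 to 2 with 1 library left out. Higher with dCeMM-3 (1) and with THZ531 (1) became 0 by spike-in or ERCC scaling. Higher with dCeMM-4 (5) became 2 by spike-in and 1 by ERCC scaling. Lower for dCeMM-2 against dCeMM-3 (0) became 2 with DESeq2 or its size factors. Higher for dCeMM-3 against dCeMM-4 (1) became 0 by spike-in or ERCC scaling or without the filter, and 0 to 1 with 1 library left out.

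Of 144 counts over the gene lists, 92 moved by over 1.5 times on the spike-in scale, 93 by ERCC scaling, 14 without the filter, 10 with the 2 groups alone, 7 with DESeq2 size factors in edgeR and 6 with DESeq2. With those size factors 16 rather than 10 metabolic genes rose with dCeMM-4, and 6 rather than 3 cofactors with THZ531. They moved the median of all genes by 0.16 with dCeMM-3, 0.16 with THZ531 and 0.12 with dCeMM-4. Correlations of same-numbered deviations between groups lay between -0.19 and 0.19. Differently numbered libraries were not compared, so these values do not settle whether replicate numbers pair the libraries. The fit with a replicate block changed no call or count of members (MYC with dCeMM-3 was -5.55). Depth limits MXD3 most, at 26 to 81 counts a library.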
